A study of Mus musculus with 4 samples.

Results

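The genes described here are 21 that mark epithelial cells and 15 that mark mesenchymal cells, read in cultures that held SL4 cells. SL4 is a mouse colon carcinoma line, so its RNA was asked for both kinds of gene. The member list gave 37 symbols, 22 epithelial and 15 mesenchymal. Each symbol was looked up among probe sets that the platform annotation assigns to 1 gene, and 36 symbols matched, of 18193 genes named on the array. The 37th entry, Villin, is the protein name of Vil1, which is itself on the list. The matched genes held 76 probe sets, 38 epithelial and 38 mesenchymal.

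Expression was measured on 4 arrays, 1 for each group, so that no group had a replicate. Kupffer cells, which are liver-resident macrophages, were sorted as CD45+ CD11b+ F4/80+ cells from female C57BL/6 mice aged 12 weeks. The mice were wild type or Clec4n-/-, that is without Dectin-2, a receptor for fungal sugars. SL4 cells, also of C57BL/6 origin and of 1 genotype throughout, were present in every group. In co-culture 100000 Kupffer cells and 100000 SL4 cells shared a dish for 8 h in RPMI medium with 10% fetal bovine serum. For separate culture the same numbers were kept apart for the same time and their RNA was mixed afterwards. The proportions of that mixture are not given in the sources used here, so an effect of contact and a different share of SL4 RNA cannot be told apart. Every array therefore holds RNA of both cell types, and in such bulk samples fewer cells of a type and less RNA per cell cannot be told apart either. The arrays had median signals of 72.5 to 78.4, and 22225 to 22703 of their 45037 probe sets lay above 76.1, the median of all signals, which served as a floor. Both Clec4n probe sets lay under that floor in all 4 arrays, at 8.19 to 17.6 and 0.629 to 7.35, and were brighter in wild type in both culture conditions. This makes them a weak check of the genotype labels.

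Epithelial cells are held in sheets by E-cadherin, tight junctions and desmosomes and contain keratin filaments. Mesenchymal cells lack these contacts, contain vimentin, often carry N-cadherin or cadherin-11 and lay down matrix such as fibronectin. Passage from the first state to the second, the epithelial-mesenchymal transition, is driven by the transcription factors of the Snail, Zeb and Twist families. Snail and Zeb proteins bind the E-box CACCTG, read as CAGGTG on the opposite strand, in promoters of epithelial genes and repress them there.

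RefSeq promoter windows, each from 250 bases before to 50 bases after a transcription start on assembly GRCm38.p6, were searched for that E-box on both strands. A window was found for 16 of the 21 epithelial and 8 of the 15 mesenchymal genes. Cdh1, Krt19, Esrp1, Esrp2, Grhl2, Cdh2, Cdh11, Zeb1, Snai2, Fn1, Pdgfrb and Thy1 were not matched. At least 1 E-box lay in 12 of 20 epithelial windows (60.0%) and in 2 of 11 mesenchymal windows (18.2%), against 6640 of 32851 windows of all genes (20.2%). By gene the shares were 11 of 16 (68.8%), 2 of 8 (25.0%) and 6098 of 27025 (22.6%). A match of letters is a description and shows no binding. The windows below are of 3 epithelial genes that hold the E-box more than once and of S100a4, a mesenchymal gene whose window holds none and which is lower in co-culture in the results that follow. Each is written 5′ to 3′ on the strand of its gene, with the E-boxes in capitals.
Epcam chr17:87635729-87636028, plus strand: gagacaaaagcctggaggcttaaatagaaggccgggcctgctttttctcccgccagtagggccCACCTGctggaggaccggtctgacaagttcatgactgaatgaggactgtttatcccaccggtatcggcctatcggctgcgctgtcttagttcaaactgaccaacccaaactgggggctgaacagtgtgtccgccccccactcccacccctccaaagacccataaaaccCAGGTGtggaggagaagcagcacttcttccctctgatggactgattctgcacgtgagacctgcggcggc
Spint2 chr7:29281928-29282227, minus strand: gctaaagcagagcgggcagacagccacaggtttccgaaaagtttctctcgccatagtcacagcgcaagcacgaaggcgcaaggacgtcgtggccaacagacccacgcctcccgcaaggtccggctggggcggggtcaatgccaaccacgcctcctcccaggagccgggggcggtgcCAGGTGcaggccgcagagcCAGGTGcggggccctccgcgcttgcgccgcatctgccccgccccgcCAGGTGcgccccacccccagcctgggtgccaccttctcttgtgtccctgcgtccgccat
Cldn7 chr11:69965171-69965470, plus strand: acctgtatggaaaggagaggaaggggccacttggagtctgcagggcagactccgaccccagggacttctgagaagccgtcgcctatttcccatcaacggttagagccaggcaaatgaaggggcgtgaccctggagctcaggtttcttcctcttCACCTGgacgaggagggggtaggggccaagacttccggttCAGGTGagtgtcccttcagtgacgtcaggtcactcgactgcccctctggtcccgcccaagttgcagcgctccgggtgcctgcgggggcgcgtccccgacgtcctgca
S100a4 chr3:90603520-90603819, plus strand: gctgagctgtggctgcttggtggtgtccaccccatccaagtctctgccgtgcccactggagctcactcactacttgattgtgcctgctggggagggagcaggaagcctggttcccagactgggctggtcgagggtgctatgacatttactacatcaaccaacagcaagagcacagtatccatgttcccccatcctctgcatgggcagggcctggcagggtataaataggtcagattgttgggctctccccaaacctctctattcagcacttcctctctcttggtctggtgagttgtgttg
The E-box occurs 3 times in the Spint2 window and 2 times each in the windows of Epcam, a surface adhesion protein of epithelia, and Cldn7, a tight junction protein.

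Most mesenchymal members lay above the floor and most epithelial members under it. Of the mesenchymal genes, 13 of 15 (86.7%) had a probe set above the floor in all 4 arrays. Among epithelial genes 4 of 21 (19.0%) did. The share was 9731 of 18193 (53.5%) for all named genes. By probe set the counts were 28 of 38 mesenchymal (73.7%) and 4 of 38 epithelial (10.5%), against 46.5% of all probe sets. Another 30 epithelial probe sets lay under the floor in all 4 arrays, at signals of 0.516 to 65.1. Signals are given below in the order wild-type separate, knockout separate, wild-type co-culture and knockout co-culture. Signals of different probe sets are not comparable as amounts of RNA, so levels are read only as above or under the floor.

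**Figure D1:**
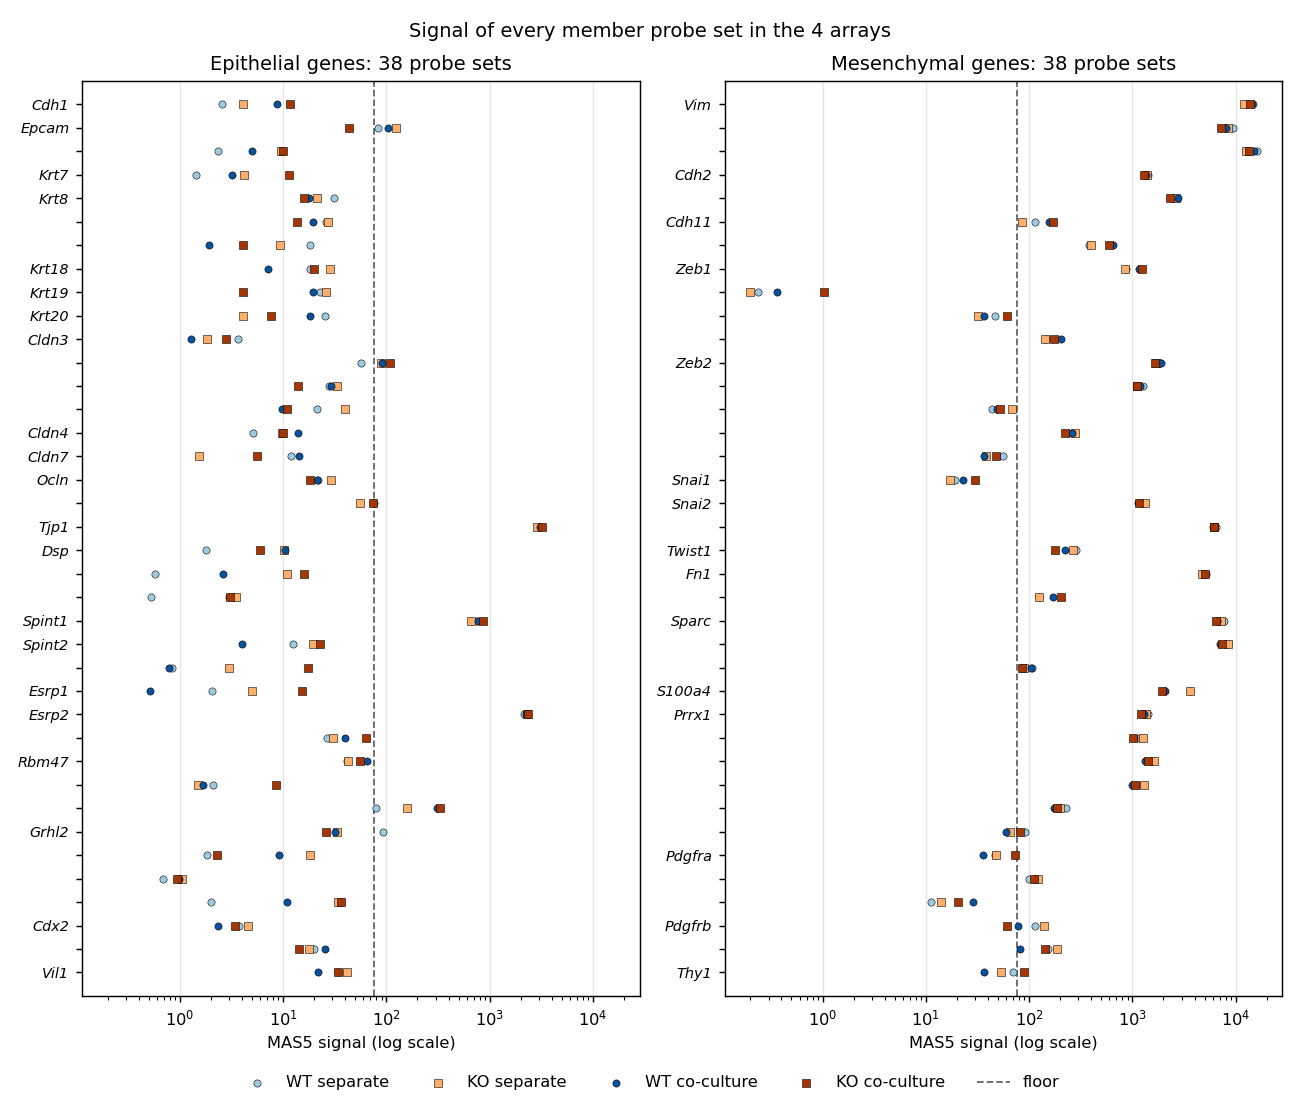
MAS5 signal (log axis) of every member probe set, epithelial on the left and mesenchymal on the right, 1 row per probe set and 1 point per array, with the floor of 76.1 dashed. All 4 points lie right of the floor for 28 of 38 mesenchymal and 4 of 38 epithelial probe sets.

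Among the junction proteins, Cdh1, which encodes E-cadherin, read 2.56, 4.09, 8.75 and 11.7. All 4 values lie far below the floor, which allows no fold. The tight junction claudins Cldn4 and Cldn7, with 1 probe set each at 1.55 to 14.2, and Dsp, the plaque protein of desmosomes, with 3 probe sets at 0.531 to 15.8, also stayed under it. Cldn3, a further claudin, crossed the floor with 1 of its probe sets, at 56.5, 88.7, 90.6 and 109. Its wild-type separate array was under the floor and the other 3 were just above. Ocln, a tight junction membrane protein, read 76.6, 55.9, 73.6 and 74.5, above the floor only in the wild-type separate array and there by less than 1 unit of signal. Tjp1, the scaffold ZO-1 that also sits at the cell contacts of many cells that are not epithelial, was the exception at 3074, 2851, 3076 and 3197.

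Of the other epithelial surface and filament genes, Epcam had 1 probe set near the floor, at 83.9, 124, 103 and 43.9, with the knockout co-culture array alone under it. Its other probe set read 2.34 to 10.0. The 5 keratins Krt7, Krt8, Krt18, Krt19 and Krt20, the filament proteins of simple and intestinal epithelia, had 7 probe sets, all at 1.45 to 31.1. Spint1, an inhibitor of membrane serine proteases, lay above the floor in all 4 arrays at 750, 667, 776 and 869. Spint2, a relative of it, did not and read 0.786 to 22.8. Thus 1 of the 2 paralogs was measured and the other was not.

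The regulators of epithelial identity were split. Esrp1 and Esrp2 direct the splicing that epithelial cells use. Esrp1 read at most 15.3. One Esrp2 probe set, of a type that can cross-hybridise with other transcripts, read 2160, 2302, 2227 and 2339, while the other read 26.5, 30.6, 40.0 and 63.1, under the floor. The probe sets of Esrp2 therefore disagree, and its level is uncertain. Rbm47, an RNA-binding protein of epithelia, had 1 of 3 probe sets above the floor, at 80.0, 159, 311 and 331. Grhl2, a transcription factor that maintains epithelial junctions, read 92.4 in the wild-type separate array with its brighter probe set and 33.4, 32.0 and 26.1 in the others. Cdx2, the intestinal homeobox factor, and Vil1, the villin of microvilli, read 2.33 to 41.9.

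The mesenchymal genes were above the floor in nearly every family. Vim, the filament protein vimentin, read 16128, 12614, 15184 and 13568 with 1 of its 3 probe sets, and the others read 7275 to 14685. N-cadherin, encoded by Cdh2, read 2568, 2660, 2755 and 2328 with 1 probe set and 1425, 1391, 1349 and 1309 with the other. Neither Vim nor Cdh2 passed the culture test described below in its main setting.

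Of the transcription factors, Snai2, which encodes Slug, read 6389, 6136, 6039 and 6150 on a probe set of the type that can cross-hybridise. Its other probe set read 1211, 1336, 1122 and 1154. Zeb2 read 1833, 1699, 1872 and 1666 with its brightest probe set. Zeb1 read 859, 851, 1152 and 1229, Twist1 286, 266, 224 and 180, and the homeobox gene Prrx1 1500, 1636, 1316 and 1406. Snai1, which encodes Snail, was the exception at 19.2, 17.0, 22.8 and 30.0, all under the floor. Some dimmer probe sets of Zeb1 and Zeb2 also lay under it in all 4 arrays. So 5 of these 6 factors had a probe set above the floor in all 4 arrays.

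The matrix genes Fn1, for fibronectin, and Sparc, for a collagen-binding glycoprotein, read 4849, 4704, 5209 and 5068, and 8375, 8387, 7090 and 7350. S100a4, a calcium-binding protein of motile cells, read 3578, 3629, 2060 and 1925. The receptors for platelet-derived growth factor were closer to the floor: Pdgfra read 98.7, 123, 112 and 111. The other Pdgfra probe sets lay under it in all 4 arrays, at 35.7 to 73.0 and 11.3 to 28.7. Thy1, a surface protein of fibroblasts and other cells, straddled it at 70.4, 53.4, 36.2 and 89.7.

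Further lists chosen for the same cell states gave the same contrast in counts. Like the members, they were chosen with earlier results of these data known, so they are not an independent check. Of 35 other epithelial genes, 7 (20.0%) lay above the floor in all 4 arrays, and of 20 intestinal and colon genes, 1 (5.0%) did. That gene was Cftr, a chloride channel, at 356, 373, 457 and 494 on a probe set of the type that can cross-hybridise. Its other probe set read 67.5, 69.5, 86.0 and 58.4, above the floor in 1 array, so its level is uncertain. Cldn12, a claudin, was among the other epithelial genes above it, at 8293, 7117, 8418 and 7687. The intestinal transcription factors Cdx1, Cdx2 and Hnf4a, singled out after their values were seen, had 7 probe sets, all at 0.148 to 25.5, so these factors of intestinal epithelium were under the floor in cultures of a line labelled as colon carcinoma. Of 41 other mesenchymal genes, 29 (70.7%) lay above it, and of 27 inducers and corepressors of the transition, 25 (92.6%). Of 16 cadherins and catenin partners, 10 (62.5%) did, among them Ctnnb1, which encodes the beta-catenin that binds both cadherins, at 11007, 8720, 11301 and 9743. In all 4 arrays 11 of the other mesenchymal genes lay under the floor, named here after their values were seen. These were Col1a1, Col1a2, Col6a2, Dcn, Lum, Postn, Lox, Fap, Mmp2, Fbln2 and Meox2, several of them matrix genes of fibroblasts.

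Markers of other cells were read in the same arrays. Of 14 muscle genes, 10 (71.4%) lay above the floor in all 4 arrays, with Myf5, a myogenic factor, at 2354, 3457, 2631 and 3763 and Myh3, the embryonic myosin heavy chain, at 3862, 3518, 3473 and 3442. The other myogenic factors, singled out after their values were seen, were also above it: Myod1 at 326 to 372, Myog at 434 to 518 and Myf6 at 144 to 179. The macrophage and Kupffer list had 9 of 23 genes above it (39.1%). Those above it included Cd53, a leukocyte tetraspanin, at 663, 719, 793 and 615, Laptm5, found in leukocyte lysosomes, at 350, 502, 384 and 410, and Cd5l, a protein secreted by tissue macrophages, at 156, 125, 156 and 195. Some Kupffer and stellate cell markers were also singled out after their values were seen. Of the same list as Cd5l, the Kupffer cell markers Clec4f, Vsig4 and Timd4 lay under the floor, with Clec4f, a lectin, at 40.7, 58.0, 35.4 and 36.6. Stellate cells, a mesenchymal type of the liver, had 4 of 11 genes above it (36.4%), among them Des, Rgs5 and Reln, with Lrat, Hand2 and Gfap under it. Endothelial cells had 2 of 12 (16.7%), mesothelial cells 1 of 6 (16.7%) and hepatocytes 4 of 9 (44.4%). As every one of these lists had genes on both sides of the floor, picked markers do not show that a cell type was present or absent. Which cell type gave the mesenchymal signal was not tested, since no array held SL4 or Kupffer cells alone.

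**Figure D2:**
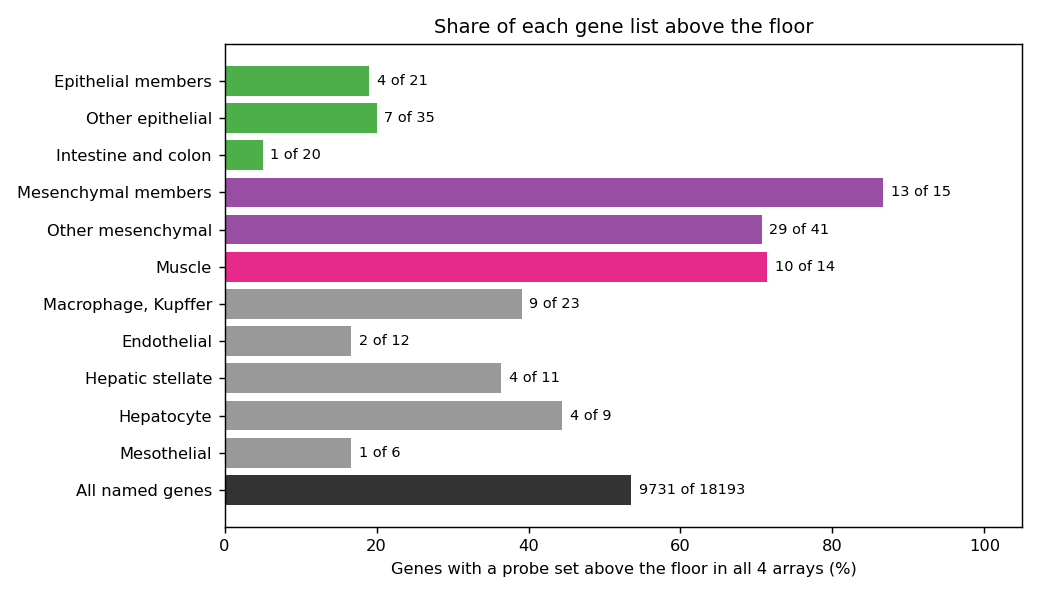
Percentage of the genes of each list with a probe set above the floor of 76.1 in all 4 arrays, as bars from 0 with the counts beside them; the lowest bar holds all named genes, at 53.5%. The mesenchymal lists lie at 86.7% and 70.7%, and the epithelial ones at 19.0% and 20.0%.

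Co-culture was next set against separate culture, once in each genotype. With 1 array on each side such a ratio has no test, and 2-fold was used to count. Rbm47 was the 1 member of 38 probe sets past 2-fold in wild type, higher by 3.89-fold, where 1.28% of all probe sets passed in either direction and 0.829% were higher. In knockout it was again the 1 member of 37, higher by 2.09-fold, where 1.19% of all passed and 0.626% were higher. No member was 2-fold lower in either genotype, against 0.453% of all in wild type and 0.566% in knockout.

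Over both genotypes the culture difference was tested with limma in an additive fit of culture and genotype. It has 1 residual degree of freedom and borrows its spread from all 24189 probe sets above the floor in at least 1 array. Among the members, 5 of 39 tested probe sets passed an adjusted p of 0.05, of 5 genes. Over all probe sets 5.47% passed, 2.44% higher and 3.03% lower. At an unadjusted p under 0.05 the member count was 15 (38.5%), beside 4558 of all (18.8%). These calls rest on the intensity trend of the fit: without it 0 members and 14 probe sets in all passed, and none of the genes named below did. The median log2 change was 0.058 over the 8 epithelial probe sets tested and -0.067 over the 31 mesenchymal ones, beside 0.0064 over all.

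**Figure D3:**
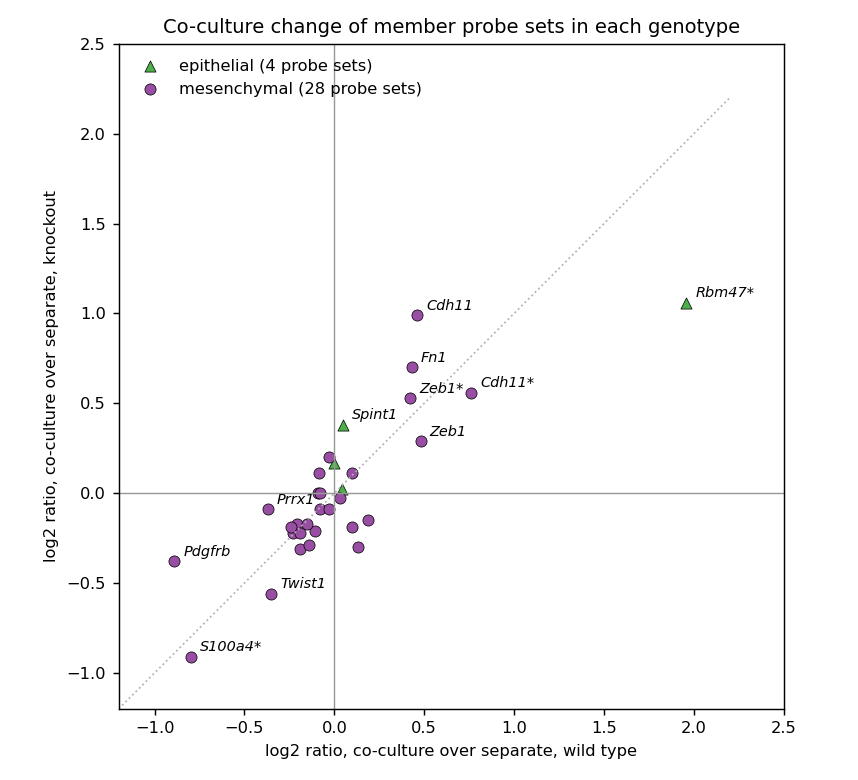
Log2 ratio of co-culture over separate culture in knockout (vertical) against wild type (horizontal) for the 32 member probe sets with signals over the floor on every array, 4 epithelial (triangles) and 28 mesenchymal (circles); the dotted line marks equal ratios and a star a probe set that passed the culture test. Rbm47 lies at the upper right and S100a4 at the lower left.

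Rbm47 had the highest change of the members. Its signals were 80.0 and 159 in separate culture and 311 and 331 in co-culture. The fitted log2 change was 1.51 (SE 0.24, limma adjusted p = 0.0011). The separate arrays were themselves apart, with knockout 1.98-fold above wild type, and the co-culture arrays were 1.06-fold apart. The wild-type separate value was close to the floor, and the other 2 Rbm47 probe sets lay under it, so the change rests on 1 probe set.

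Among the mesenchymal members, Cdh11 and Zeb1 rose. Cadherin-11, encoded by Cdh11, is an adhesion molecule of mesenchymal cells. Its signals were 381, 401, 646 and 594, higher in co-culture by 1.70-fold for wild type and 1.48-fold for knockout. The log2 change was 0.66 (SE 0.14, limma adjusted p = 0.011). Its dimmer probe set, at 114, 85.7, 156 and 171, had a change of 0.73 with an adjusted p of 0.056. Zeb1, a repressor of E-cadherin, was higher by 1.34-fold and 1.44-fold, with a log2 change of 0.48 (SE 0.089, limma adjusted p = 0.0036). A dimmer Zeb1 probe set read 145, 142, 202 and 173, with a change of 0.38 and an adjusted p of 0.37.

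S100a4 and Pdgfrb fell. The signals of S100a4 were 3578 and 3629 in separate culture and 2060 and 1925 in co-culture, 1.74-fold lower for wild type and 1.89-fold lower for knockout. The log2 change was -0.86 (SE 0.070, limma adjusted p = 1.1e-06). Pdgfrb, the beta receptor for platelet-derived growth factor, read 114, 140, 78.4 and 61.0. The last of these lies under the floor, so the level was 1.45-fold lower for wild type and at least 1.85-fold lower for knockout, with a fitted log2 change of -0.71 (SE 0.19, limma adjusted p = 0.036). The call was lost without the floor, with an adjusted p of 0.18, and under other settings given in the closing section. The other Pdgfrb probe set, at 152, 187, 82.0 and 144, had a change of -0.64 and an adjusted p of 0.10.

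**Figure D4:**
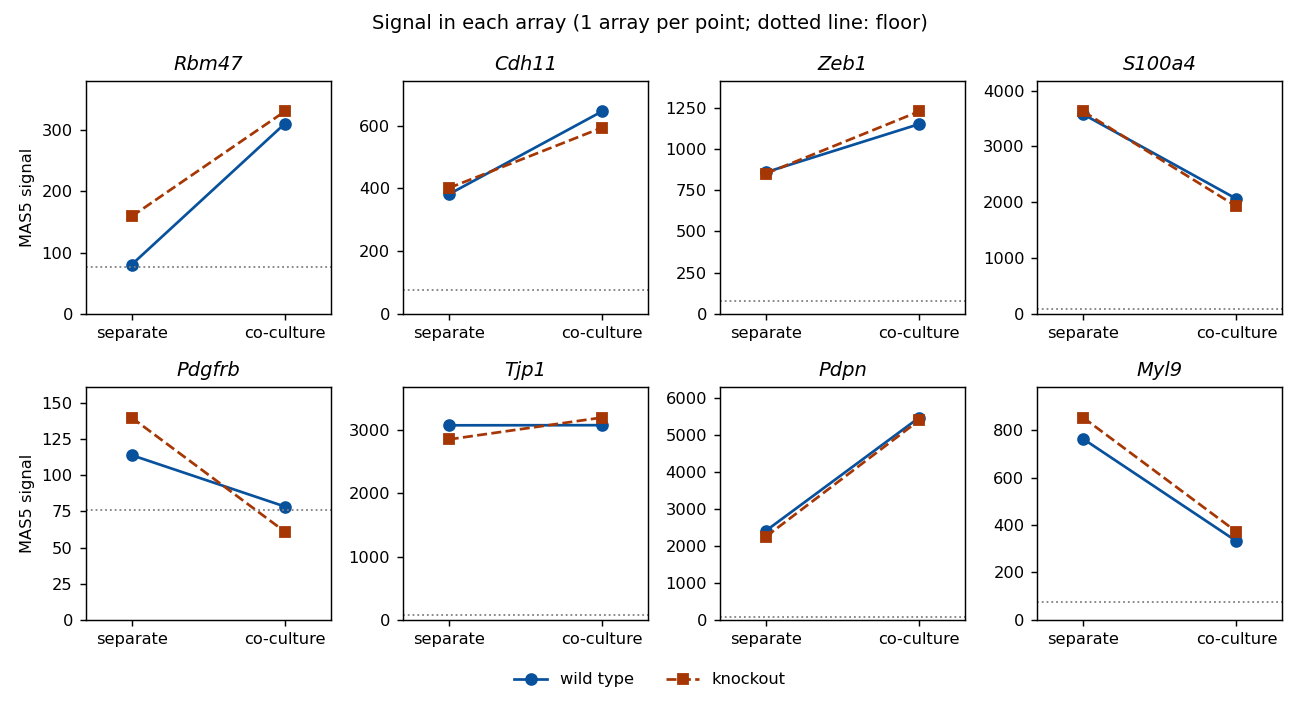
MAS5 signal on linear axes from 0, 1 point per array, with lines joining separate culture and co-culture in wild type (solid) and knockout (dashed) and the floor dotted, for the 5 members that passed the culture test and, for comparison, Tjp1, Pdpn and Myl9. Rbm47, Cdh11, Zeb1 and Pdpn are higher in co-culture in both genotypes and S100a4, Pdgfrb and Myl9 lower.

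The remaining members above the floor had differences that did not pass. Tjp1 had a log2 change of 0.083 (SE 0.071, limma adjusted p = 0.60) and Spint1 of 0.21 (SE 0.11, adjusted p = 0.32). Of the brighter mesenchymal genes, Sparc had values of -0.19 and -0.22 with adjusted p of 0.18 and 0.13, Twist1 of -0.46 with 0.25, and Fn1 of 0.11 with 0.47. A dimmer Fn1 probe set read 126, 125, 169 and 203, with a change of 0.57 and an adjusted p of 0.15. That change is larger than the one called for Zeb1. These p-values do not show that the genes were equal in both cultures. Of the 28 mesenchymal probe sets that cleared the floor on every array, 6 were higher and 14 lower in both genotypes and 8 went opposite ways, beside 31.2% higher and 31.6% lower of 20926 probe sets in all. The 4 epithelial ones were all above 0, but for Tjp1 in wild type by a log2 ratio of only 0.00095, and when the arrays were scaled to a common median 1 of the 4, Rbm47, was still higher in both. That scaling left 17.9% of all probe sets higher and 44.3% lower in both.

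The other lists of the same biology also held calls in both directions. Of 30 other mesenchymal genes tested, 5 had a probe set that rose and 5 one that fell. Among all 10646 named genes tested, 3.57% had a probe set that rose and 5.08% one that fell. Over the lists other than the members, 26 genes had a call. Of these, 17 kept it with some probe set under each of 7 other settings of floor, scaling, filter and robust fit. The 9 that did not are marked below by an adjusted p at which the call was lost. Without the genotype term only 9 of the 42 called probe sets kept the call, of Pdpn, Ccn1, Tnc, Col3a1, Tpm2, Myl9 and Smyd1. Without the intensity trend 0 did. Pdpn, the membrane mucin podoplanin, had the highest change, from 2403 and 2245 to 5460 and 5387, a log2 change of 1.22 (SE 0.069, limma adjusted p = 8.1e-09). Ccn1, a matricellular protein, rose with all 4 of its probe sets, the highest log2 change being 1.02, and Tnc, the matrix protein tenascin-C, rose by 0.54. Itga5, an integrin chain that binds fibronectin, rose by 0.51 on a probe set that can cross-hybridise. Its other probe sets had limma adjusted p of 0.35, 0.27 and 0.21. Fstl1, a secreted glycoprotein, rose by 0.30, though not with a common median (adjusted p = 0.13). On the other side Myl9, a myosin light chain of contractile cells, fell from 764 and 854 to 332 and 372, a log2 change of -1.2 (SE 0.13, adjusted p = 2.8e-05). Col3a1, a fibrillar collagen, fell by 0.52 on the log2 scale, and Bgn, the matrix proteoglycan biglycan, fell with all 3 of its probe sets. The tropomyosin gene Tpm2 fell with 1 of 4 and the transcription factor gene Tcf4 with 2 of 5 probe sets above the floor, the latter not with quantile normalization (adjusted p of 0.092 and 0.13).

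Of 26 inducers and corepressors tested, 3 rose and 0 fell, through 6 probe sets of which 4 were of Sox4. Tgfb1, the cytokine that starts the transition in many epithelia, read 209, 158, 513 and 437, a log2 change of 1.38 (SE 0.20, limma adjusted p = 0.00033). Sox4, a transcription factor, rose with 4 probe sets by 0.33 to 0.43. Smad7, an inhibitor of the same cytokine's signal, rose by 0.43 on a probe set that can cross-hybridise. The Smad7 call was lost with quantile normalization (limma adjusted p = 0.065). Among the 12 cadherin and catenin partners tested, Pcdh7, a protocadherin, rose by 0.95 (with quantile normalization adjusted p = 0.071), while Nectin3, an adhesion molecule, fell with 3 probe sets and Vcl, the junction and focal contact protein vinculin, with 2. Of 7 other epithelial genes tested, Klf5, a transcription factor, rose with 2 probe sets. The desmosomal genes Dsc2 and Jup, the latter on a probe set that can cross-hybridise, fell by 0.88 and 0.76 on the log2 scale. These calls depended on the processing. Without the floor, where all 45037 probe sets were tested, the adjusted p was 0.069 and 0.074 for Klf5, 0.10 for Dsc2 and 0.083 for Jup. With the floor at 152 the log2 change was -0.061 for Dsc2 and -0.41 for Jup (adjusted p of 0.85 and 0.11). The dimmer of the called Klf5 probe sets then had 0.21 (0.43). Quantile normalization gave 0.071 and 0.078 for Klf5 and 0.07 for Jup, and robust eBayes 0.057 for Jup. The intestinal list had no call in 2 genes tested.

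Markers of other cells moved beside these. The macrophage list had a summed signal of 2614, 3071, 3147 and 2937, and 1 of its 11 genes tested rose: C1qb, a complement component, whose co-culture signals of 264 and 211 lay above both separate ones, though the call was lost with quantile normalization (adjusted p = 0.081). The muscle list had 3 genes of 11 that fell: Actc1, a cardiac actin, by 0.66 on the log2 scale, Smyd1, a methyltransferase of muscle, from 604 and 592 to 203 and 211, and Des, the filament protein desmin, from 2235 and 1778 to 1173 and 1086. Des also stands on the stellate list, where Rgs5, a pericyte regulator of G proteins, rose by 0.62. Flt1, a receptor for vascular endothelial growth factor, fell in the endothelial list. Apoa1, an apolipoprotein on the hepatocyte list, passed with a limma adjusted p of 0.043 on a probe set that can cross-hybridise. It lost the call without the floor (0.22) and under 4 others of the 7 settings. The part of these cells in the changes of the members was not tested.

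Arrays with knockout Kupffer cells were next set against arrays with wild-type ones. In separate culture 0 of 38 member probe sets were 2-fold apart, against 0.345% of all (0.177% higher and 0.168% lower in knockout). In co-culture 0 of 37 were, against 0.328% (0.136% higher and 0.191% lower). In the limma fit 0 of 39 passed for genotype, beside 0.145% of all probe sets (0.0661% higher and 0.0785% lower). At such shares a count of 0 says nothing particular about the members. At an unadjusted p under 0.05 there were 3 (7.69%), beside 2238 of all (9.25%). These were Rbm47, with a log2 difference of knockout minus wild type of 0.54, a probe set of Vim with -0.26 and a probe set of Pdgfrb with 0.55. The change on co-culture differed 2-fold between genotypes for 1 of 39 members, against 1.61% of all (0.591% higher and 1.02% lower). That was Epcam, which in wild type read 83.9 in separate culture and 103 in co-culture, and in knockout 124 and 43.9. Such a difference of differences has no test here.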

How the data were processed

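Per the labels' protocols, 20 ng of RNA from each of the 4 samples was amplified, labelled with biotin and put on an array. The deposited values are linear intensities that the authors made with Affymetrix Expression Console 1.4 and MAS5, per the submitters' processing notes. Trimmed means of 497 to 498 show that the arrays share 1 scale, which hides any difference in total RNA. The annotation gave 1 symbol to 34945 probe sets, several to 932, and 9160 were unnamed here.

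Signals were raised to the floor of 76.1 and log2-transformed. A ratio with its dimmer array at the floor is written "at least". The additive fit of culture and genotype used limma 3.58.1 with an intensity trend (prior degrees of freedom 15.2) and Benjamini-Hochberg adjustment over 24189 probe sets. Its spread is the departure from additivity over single arrays, pooled with that of other probe sets, and holds no replicate error. On simulated arrays of the 22363 probe sets whose mean signal lay above the floor, fewer than in the fit itself, 200 were changed. The culture test called 60% at a true change of 1.5-fold, 94% at 2-fold, 88% at 3-fold and 0.0226% of unchanged ones. The simulated noise had the same spread for every probe set. These shares therefore do not measure the test where the spread depends on the signal, as the intensity trend of the real fit assumes. Genes of other lists could be named if they passed the culture or genotype test, were 2-fold in both genotypes or were among the 5 brightest of their list; exceptions are stated. The members and lists were chosen with earlier results of these data known. Alternatives were no floor, a higher floor, a pseudocount, other scalings, other filters, the median over a gene's probe sets and other forms of the fit. Promoter windows came from a RefSeq table of GRCm38.p6. The number of arrays limits the precision.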

Additional observations from a re-analysis of the deposited data

Results flagged for a closer look

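Epcam differed between the genotypes in its change on co-culture, by -1.01 on the log2 scale (knockout minus wild type). It was the 1 member of 39 past 2-fold in this difference, beside 1.61% of all probe sets, so the count says nothing particular about the members. Its signal was 1.23-fold higher in co-culture than in separate culture in wild type and at least 1.63-fold lower in knockout, where the co-culture array lay under the floor. The arrays of the genotypes moved in opposite directions, and the difference was not tested. The signals of 43.9 to 124 lie around the floor, and the other Epcam probe set stayed under it in all 4 arrays.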

How the results depend on the processing

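Of 1383 member values recomputed under the alternatives, 55 changed sign, and 0 of these had been called. In some alternatives the sign could not change, as the log2 changes stay the same. These were 39 values each without the trend, with robust eBayes and without the blocking term, and 175 with the filter on mean signal. Of the changes, 23 came with the median over a gene's probe sets and 17 with a common median. Of the 5 members called for culture, S100a4, Rbm47, Cdh11 and Zeb1 kept their call without the floor, with the floor at 152, with a pseudocount in its place, with quantile normalization, with a common median, with a filter on mean signal and with robust eBayes. Pdgfrb kept it with a common median and robust eBayes, was not tested with the floor at 152, and lost it under the others, with adjusted p of 0.061 to 0.18. Without the intensity trend no member was called, with adjusted p of 0.13 to 0.19. Without the genotype term 1 was, S100a4. Some settings added calls. With quantile normalization 7 member probe sets passed, among them probe sets of Vim (limma adjusted p = 0.017) and Sparc (0.023 and 0.016) that were lower in co-culture. With a common median 10 passed. Those added were the dimmer Cdh11 probe set, higher, and probe sets of Prrx1 and Pdgfrb, lower. The filter on mean signal also added the dimmer Cdh11 probe set (0.048). The number of member probe sets above the floor in all 4 arrays was 25 (3 epithelial, 22 mesenchymal) with the floor at 152, 32 under both other scalings, and 29 (3 and 26) without cross-hybridising types of probe set, a setting chosen after seeing the data. Counts over all probe sets moved more. The 2-fold counts of 300 in wild type, 280 in knockout, 80 and 77 between genotypes in separate culture and co-culture, and 389 for the difference of changes became 9599, 8940, 8866, 8821 and 12554 with no floor. They became 138, 143, 20, 18 and 104 with the floor at 152, and 128, 120, 20, 15 and 96 with a pseudocount. The culture count of 1322 was 2111 with a pseudocount, 724 with quantile normalization, 2468 with a common median, 14 without the trend and 208 without the genotype term. The split of 590 higher and 732 lower became 602 and 1866 with a common median, which shifts the median wild-type ratio by -0.11. That scaling also turned the 2-fold split in wild type from 194 higher and 106 lower to 136 and 188, the split between genotypes in separate culture from 41 and 39 to 33 and 54 (32 and 50 with quantile normalization), and that of the difference of changes from 143 and 246 to 181 and 188 (191 and 186). The genotype count of 35 was 18 with no floor, 85 with the higher floor, 289 with a pseudocount, 1 with quantile normalization, 190 with a common median, 197 with the mean filter, 0 without the trend and 0 without the culture term. The cause of these shifts was not tested. The culture fit is blocked by genotype and the genotype fit by culture; the labels carry no replicate numbers, so no other pairing was made. Leaving out an array leaves no residual degree of freedom, so that only the ratio of the other genotype remains.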

Other observations

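Myf5, a factor that commits cells to the muscle lineage, was the 1 gene of the member and other lists to pass the genotype test. The knockout signals were 3457 in separate culture and 3763 in co-culture, and the wild-type signals were 2354 and 2631. The log2 difference of knockout minus wild type was 0.54 (SE 0.068, limma adjusted p = 0.002). The call was lost with quantile normalization (adjusted p = 0.057), without the intensity trend (0.74) and without the culture term.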
